A study of Mus musculus with 24 samples.

Results

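Nuclear genes for oxidative phosphorylation were followed in ATAC-seq data from mouse embryonic stem cells. They were taken as the protein-coding autosomal genes whose symbols start with Nduf, Uqcr or Atp5, plus Sdha, Sdhb, Sdhc and Sdhd, and 76 of 20665 such genes in the gene table (GRCm38.p6) met this rule. Their bodies, extended by 2 kb on each side, overlapped 361 of the 299780 deposited intervals for untreated cells and 357 of the 272268 intervals for treated cells, all of the same width. No interval fell within 2 kb of Atp5g1, Ndufa6 or Ndufb4c, which left 73 genes with an interval in each table. ATAC-seq uses the Tn5 transposase to insert adapters into open chromatin, so the values measure how accessible the DNA is and not how much RNA is made. The cells were the E14 line, grown on gelatin with serum and leukemia inhibitory factor. Wild-type cells (WT) were set beside cells lacking Smad2 (KO) of the lines Smad2_KO1 and Smad2_KO2. Each line was taken without inhibitor (Ctrl) or after 12 h with 200 nM INK128, an mTOR inhibitor, which the labels call Paused. Each of these 6 groups had 4 libraries of 50000 cells, 24 in all. Each KO line is taken as 1 clone. The labels do not say whether the libraries of a group came from separate cultures, so p-values measure the spread between these libraries, which may be technical.

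Oxidative phosphorylation passes electrons from NADH through complex I, or from succinate through complex II, to ubiquinone, then through complex III and cytochrome c to complex IV, while complex V (ATP synthase) uses the resulting proton gradient to make ATP. Complex II is encoded wholly in the nucleus, and the other complexes combine nuclear subunits with a few encoded by mitochondrial DNA. The nuclear genes are expressed in nearly all cells, many from CpG-rich promoters bound by NRF1, by ETS family factors such as GABPA and by YY1. Inhibition of mTOR places mouse embryonic stem cells in a reversible, slowly dividing state that resembles embryonic diapause, and Smad2 transduces Nodal signals.

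The 250 bases before the transcription start of 6 members are printed because the results turn on these promoters. Ndufv1, Sdhb, Uqcr11, Atp5k and Atp5e were called lower in both paused KO clones, a call that Sdhb, Uqcr11 and Atp5k each lost under 8 of 23 alternatives and Atp5e under 13. Atp5l had the weakest start interval in untreated WT cells and one of the largest differences between treatments. The sequences are from RefSeq (GRCm38.p6), 5′ to 3′ on the strand of the gene: Ndufv1 from chr19:4012756-4013005 (minus strand), Sdhb from chr4:140961021-140961270 (plus strand), Uqcr11 from chr10:80406822-80407071 (minus strand), Atp5k from chr5:108434400-108434649 (minus strand), Atp5e from chr2:174464102-174464351 (minus strand) and Atp5l from chr9:44920743-44920992 (minus strand). Capitals mark matches on either strand to GCGCATGC (the core of the NRF1 motif), CCGGAAG (ETS family) or AAGATGGC (YY1).
Ndufv1: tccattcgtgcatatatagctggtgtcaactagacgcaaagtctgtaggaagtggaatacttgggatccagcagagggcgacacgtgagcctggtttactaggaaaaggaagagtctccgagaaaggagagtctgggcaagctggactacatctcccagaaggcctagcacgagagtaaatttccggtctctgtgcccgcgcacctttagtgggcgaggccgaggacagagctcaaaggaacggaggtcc
Sdhb: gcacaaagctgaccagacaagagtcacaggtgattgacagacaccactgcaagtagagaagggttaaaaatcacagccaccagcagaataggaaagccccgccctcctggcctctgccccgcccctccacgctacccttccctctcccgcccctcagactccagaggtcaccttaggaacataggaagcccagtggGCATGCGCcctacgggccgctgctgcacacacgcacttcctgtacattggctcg
Uqcr11: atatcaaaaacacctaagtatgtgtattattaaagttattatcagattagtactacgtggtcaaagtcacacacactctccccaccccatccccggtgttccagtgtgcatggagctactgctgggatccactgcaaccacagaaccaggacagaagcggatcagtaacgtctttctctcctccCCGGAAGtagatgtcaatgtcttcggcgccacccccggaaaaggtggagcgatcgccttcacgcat
Atp5k: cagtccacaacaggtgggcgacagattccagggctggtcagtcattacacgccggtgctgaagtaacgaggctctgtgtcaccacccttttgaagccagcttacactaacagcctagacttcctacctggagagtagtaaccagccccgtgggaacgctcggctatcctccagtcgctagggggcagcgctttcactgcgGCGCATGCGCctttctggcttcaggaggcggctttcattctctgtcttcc
Atp5e: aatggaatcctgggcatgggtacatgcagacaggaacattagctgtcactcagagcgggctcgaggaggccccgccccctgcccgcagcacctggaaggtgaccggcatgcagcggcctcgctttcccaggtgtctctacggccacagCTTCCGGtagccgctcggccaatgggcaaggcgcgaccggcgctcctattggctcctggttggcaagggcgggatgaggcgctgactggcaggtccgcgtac
Atp5l: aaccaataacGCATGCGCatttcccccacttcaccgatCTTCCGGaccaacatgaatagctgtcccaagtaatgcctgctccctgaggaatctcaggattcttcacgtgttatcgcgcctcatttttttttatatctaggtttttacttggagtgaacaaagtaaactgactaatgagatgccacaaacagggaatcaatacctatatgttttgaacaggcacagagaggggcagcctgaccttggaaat
Sdhb held an NRF1 match that began 54 bases before the start, and Atp5k held a pair of overlapping NRF1 matches 50 and 48 bases before it. Uqcr11 and Atp5e each held an ETS match, 66 and 102 bases before the start. In Atp5l an NRF1 and an ETS match lay 240 and 212 bases upstream. No match lay in the 250 bases printed for Ndufv1. Each of these stretches overlapped the start interval of its gene.

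Promoters of the set held these letters more often than promoters in general. RefSeq windows of 300 bases (250 before to 50 after the start) matched 63 of the 76 genes and 16457 of the 20665 protein-coding autosomal genes. The NRF1 core was found in 11 of the 63 windows (17.5%) against 3.66% of all windows. The YY1 letters were found in 10 (15.9%) against 3.23%, and the ETS letters in 15 (23.8%) against 12.3%. At least 1 of the 3 motifs was present in 31 windows (49.2%) against 17.7%. These are counts of letters in a fixed window, given as a description. The members' windows also held more CpG dinucleotides (median 20 against 14), with a GC content of 59% against 56.7%.

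Each gene was represented by its start interval, the strongest one within 500 bases of its transcription start, or of either end of the gene for the 13 members with no start in the reference (among them Ndufs1, Ndufa2, Ndufa4l2, Ndufaf6, Ndufb4c, Ndufb9, Sdhc, Uqcrb, Uqcrc2, Uqcrq, Atp5a1 and Atp5mpl), whose interval may thus lie at the other end. A start interval was found for 66 members in Ctrl and 68 in Paused. Ndufs1, a core subunit of complex I, had one in Paused and none in Ctrl. None was found in either table for Atp5g1, Atp5g2, Ndufa6, Ndufa7, Ndufa11, Ndufb10, Ndufb4b and Ndufb4c. Among the 56 members with a reference start and a start interval, the centre of the interval lay a median of 59 bases upstream of the start in Ctrl and 56 bases in Paused, and within 100 bases of it for 39 in each table. Many of these starts are shared with a neighbour: in Ctrl 28 of the 66 members used an interval that was also the start interval of another gene, such as Sdhd with Timm8b, Atp5j with Gabpa, Ndufb5 with Mrpl47 and Ndufs3 with Kbtbd4. This was 42.4% of the members against 13.0% of all genes with a start interval, and 37.5% against 13.5% among genes with a reference start. A value at a shared start cannot be assigned to 1 of the genes.

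Across the series, recovered reads in intervals ranged from 11772458 to 16525762 per library in Ctrl and from 11456986 to 20007829 in Paused, and every Paused Smad2_KO1 library (at least 14946853 reads) was deeper than every Paused WT library (at most 14763067). The start interval of Smad2, the targeted gene, was at 362 ± 44.6 in WT, 363 ± 42.6 in Smad2_KO1 and 355 ± 23.1 in Smad2_KO2 in Ctrl (SD, n = 4 each). The labels do not say which part of Smad2 was altered, so this value does not check the knockout. The start intervals of 7 of 8 pluripotency markers were present in Ctrl and 6 of 8 in Paused, at WT levels of 52.1 to 468 and 29.6 to 565, and none was called. The 29.6 was at Tfcp2l1, whose start interval in Paused did not overlap the one used in Ctrl, which was at 190. Of the other cell types listed, primitive endoderm markers had start intervals for 3 of 4 genes in Ctrl and 4 of 4 in Paused, trophoblast markers for 2 and 3 of 4, and fibroblast markers for 1 and 2 of 5. Their WT levels in Ctrl and Paused were 16.1 to 170 and 12.5 to 264 for primitive endoderm, and 36.4 to 79.0 and 35.0 to 115 for trophoblast. For fibroblast markers they were 204 in Ctrl and 23.1 to 341 in Paused. These levels overlapped those of the pluripotency markers. Among the markers of other cell types, Thy1 was lower in the clones in both tables, Tfap2c was lower and Elf5 higher in Paused. In bulk libraries, fewer cells with an open site and less opening per cell cannot be told apart.

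Some libraries were unusually alike and others stood apart, which touches the comparisons of Paused cells most. The same-numbered libraries of the KO clones differed from each other by about counting noise alone: chi-square per interval was 0.968 to 1.06 for the 4 Paused pairs, where 1 is the value that counting noise gives, against 1.09 to 1.62 for differently numbered libraries of the clones and 1.11 to 2.19 for libraries of 1 line. In Ctrl the same-numbered pairs gave 0.990 to 1.33. A call in both clones may therefore not rest on 2 independent sets of libraries, and the results are also given with the same-numbered KO libraries averaged, 4 against 4. The Paused WT libraries also differed among themselves. The start intervals of all genes held 24.7% and 25.0% of the table's signal in replicates 1 and 4, but 21.7% and 21.2% in replicates 2 and 3, and the KO libraries ranged from 20.9% to 22.4%. Results in Paused are therefore given without replicates 1 and 4 as well.

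The start intervals of oxidative phosphorylation genes were among the strongest in the tables. The mean over the 12 libraries was a median of 254 for member starts in Ctrl and 289.9 in Paused, in the deposited normalized signal, against 20.9 and 24.4 over all intervals and 191 and 239 over the start intervals of all genes. The top 10% of all intervals by level held 63 of 66 member starts in Ctrl and 64 of 68 in Paused, beside 71.5% and 73.2% of the start intervals of all genes.

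Levels ranged widely within complexes I and V and less within complexes II and III. In complex I of untreated WT cells, Ndufs8, an iron-sulfur core subunit, was highest at 600.0 ± 37.3 (SD, n = 4) and Ndufa9, an accessory subunit, lowest at 62 ± 12.3. In complex II, Sdhb, the iron-sulfur subunit, stood at 451 ± 61.8 and Sdha, the flavoprotein, at 232 ± 33.5. Complex III ranged from 238 ± 20.5 at Uqcr11 to 357 ± 32.1 at Uqcrq, both small subunits. Ndufa4, counted with complex IV, was at 219.5 ± 48 and its paralog Ndufa4l2 at 369 ± 26.6. In complex V the extremes were Atp5j, of the peripheral stalk, at 572 ± 40.5, an interval it shares with Gabpa, and Atp5l, a membrane subunit, at 42.7 ± 3.17. All intervals compared here had the same width, so levels were compared without a length correction.

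Pausing went with higher signal at these starts in wild type. The tables hold different intervals and were normalized separately, so the difference between treatments, log2(mean Paused + 1) minus log2(mean Ctrl + 1) over intervals that overlap by at least 50% of each, is a description without a test. For the 65 member starts that could be matched, the median difference in WT was 0.30, and 64 of the 65 (98.5%) were above 0. The median was also 0.30 for the 11384 matched start intervals of all genes and 0.08 for all 215826 matched intervals. So the size was that of starts in general. Of all matched starts 91.4% were above 0, and of all matched intervals 58.2%. All 4 Paused WT libraries exceeded all 4 Ctrl WT libraries at 25 of the 65 member starts, or 38.5%. The same held for 30.7% of all matched starts and 13.7% of all matched intervals. No member start showed the reverse, which was seen at only 0.685% of all matched starts.

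The difference was smaller in the KO clones, with medians of 0.18 in Smad2_KO1 and 0.17 in Smad2_KO2 for the members and 0.23 and 0.20 for all matched starts. Without the Paused WT replicates 1 and 4, the WT median was 0.17 for the members, near the clones, and 0.15 for all starts, below the clones. These libraries were picked for their high share of signal in starts, so leaving them out was bound to lower this difference. The omission therefore cannot decide whether the gap between WT and the clones rests on them.

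Among single genes, Uqcrq had the largest difference in WT at 0.63. Its start interval held 396, 338, 325 and 369.9 in the 4 Ctrl WT libraries and 590.5, 504, 465 and 656 in the 4 Paused WT libraries, with no overlap. Uqcrq encodes a small subunit of complex III, and the interval is shared with Gdf9. Atp5l followed at 0.62, from 39.5, 42.1, 47.1 and 42.1 to 74.5, 67.6, 41 and 80.8, where 1 Paused library lay inside the Ctrl range. The clones differed by more at this gene, 0.89 in Smad2_KO1 and 0.67 in Smad2_KO2. Ndufb1, an accessory subunit of complex I, differed by 0.53 and Ndufaf6, a complex I assembly factor, by 0.51, the latter without overlap between the groups. At the other end stood the assembly factors Ndufaf5 at -0.04, Ndufaf7 at 0.04 and Ndufaf2 at 0.05, and the core subunit Ndufs7 at 0.08. With DESeq2 size factors over both tables the median of the members was 0.21, and Ndufaf2, Ndufaf7 and Ndufs7 were below 0 (-0.04, -0.05 and -0.02), as they were without Paused WT replicates 1 and 4. For Ndufaf5 the values were 300.1, 240.1, 233 and 272 in Ctrl and 290.4, 224, 219 and 279 in Paused, with overlapping ranges. Medians by complex were 0.31 for complex I (36 starts), 0.35 for complex II (4), 0.32 for complex III (8), 0.29 for Ndufa4 and Ndufa4l2, and 0.29 for complex V (15). Non-overlapping groups were found at 16 of the 36 complex I starts, 1 of 4 in complex II and 6 of 8 in complex III. They were found at 0 of 2 in complex IV and 2 of 15 in complex V, against 30.7% of all matched starts. Differences between complexes were not tested. The other 216 matched member intervals, away from starts, had a median difference of 0.04.

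**Figure D1:**
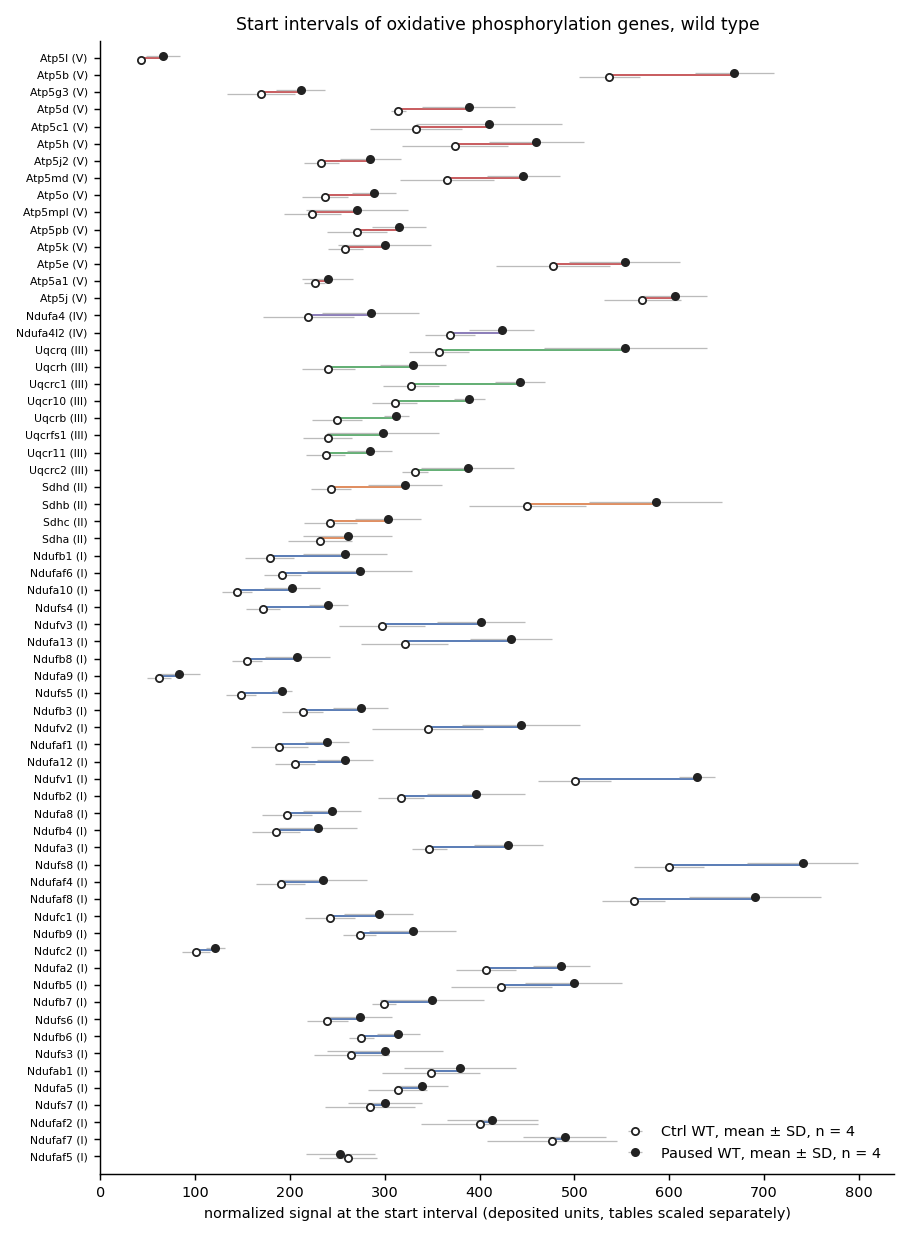
Normalized signal (x axis, deposited units) at the start interval of each of 65 members in untreated (open circles) and paused (filled circles) wild-type cells, mean ± SD of 4 libraries. Genes are grouped by complex, the numeral after the symbol, and ordered by the difference within each complex. Filled circles lie to the right for 64 of 65 genes, and Ndufaf5 is the exception. Of all matched starts, 91.4% were higher in Paused. The tables were scaled separately.

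In untreated cells, no start interval of these genes was called in the Smad2 knockout clones. A call required an adjusted p under 0.05 (limma, adjusted over all tested intervals) for Smad2_KO1 and for Smad2_KO2, both in 1 direction. None of the 66 member starts was called, where 3.31% of all start intervals were (1.04% higher and 2.27% lower). At an unadjusted p under 0.05 in both clones (limma) 3 were lower and none higher. Starts of all genes were not counted at this threshold, so these 3 cannot be set against a background. The quasi-likelihood test of edgeR on recovered reads called 1 lower, against 6.16% of all starts, and 3 were lower with the same-numbered KO libraries averaged, against 5.35% of all starts. The median log2 change, KO minus WT averaged over the clones, was -0.07 at member starts and -0.06 at all starts, with member values from -0.49 to 0.09. In Smad2_KO1 alone 3 starts passed, those of Atp5l, Uqcr10 and Atp5a1, and in Smad2_KO2 alone none did. Of the 12843 tested starts of all genes, 794 passed in Smad2_KO1 and 656 in Smad2_KO2, whether or not the other clone passed. No member interval differed between the clones at an adjusted p under 0.05, and the same held for all 282089 tested intervals in Ctrl.

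Atp5l, subunit g of ATP synthase, showed the largest value. Its start interval in Ctrl held 39.5, 42.1, 47.1 and 42.1 in the WT libraries, 25.6, 28.8, 16.9 and 37 in Smad2_KO1, and 35.1, 28.2, 42.5 and 34.2 in Smad2_KO2. All Smad2_KO1 libraries were below the WT libraries, while 1 Smad2_KO2 library reached the WT range. The log2 changes were -0.69 ± 0.19 in Smad2_KO1 (SE; limma adjusted p = 0.0146) and -0.29 ± 0.19 in Smad2_KO2 (adjusted p = 0.362). At Uqcr10, a small subunit of complex III whose start interval is shared with Zmat5, all 8 KO libraries lay below the 4 WT libraries (310.5 ± 23.7 for WT against 253 ± 18.5 and 266 ± 7.96 for the clones, SD, n = 4 each), with log2 changes of -0.29 ± 0.09 in Smad2_KO1 (SE; limma adjusted p = 0.0273) and -0.22 ± 0.09 in Smad2_KO2 (adjusted p = 0.116). For Atp5a1, the alpha subunit of the catalytic head, whose start interval is shared with Haus1, they were -0.36 ± 0.11 in Smad2_KO1 (SE; limma adjusted p = 0.0273) and -0.26 ± 0.11 in Smad2_KO2 (adjusted p = 0.137). The remaining core genes had small values in Ctrl: Ndufv1 -0.07 and -0.09, Sdha 0.01 and -0.09, Sdhb -0.14 and -0.11, Uqcrc1 -0.15 and -0.17, Uqcrfs1 -0.02 and -0.07 and Atp5b -0.08 and -0.08 in Smad2_KO1 and Smad2_KO2, none past the threshold.

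In paused cells, the start intervals of 13 members fell in both KO clones and none rose. These were 13 of 68 (19.1%), against 11.5% of all start intervals called lower, 1.94% called higher and 13.5% in either direction. The median log2 change was -0.19 at member starts and -0.13 at all starts, and 65 of the 68 member values were below 0. The 13 genes encode 3 core subunits of complex I (Ndufv1, Ndufs7 and Ndufs8) and its accessory subunit Ndufv3, the complex II subunits Sdhb and Sdhc, the complex III subunits Uqcrc1, Uqcrq and Uqcr11, and in complex V the head and stalk subunits Atp5b, Atp5d and Atp5e and the membrane subunit Atp5k. The changes ranged from -0.23 at Atp5e to -0.36 at Uqcrq as means of the clones. All 8 KO libraries were below all 4 WT libraries at 11 of the 68 starts. Of the 13 called starts, 6 were among these (Ndufv1, Ndufs8, Ndufv3, Uqcrc1, Uqcr11 and Atp5b). The call and the separation rest on the same values. The share of all starts separated in this way was not counted, so the counts of separated starts cannot be set against a background. The fold changes in the authors' deposited table are for KO as a whole, and there 32 of the 68 starts were lower and none higher at a false discovery rate under 0.05, against 27.2% lower of all starts.

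The number of calls depended on the WT libraries. Without Paused WT replicates 1 and 4, 3 of the 68 starts were called (Ndufv1, Uqcrc1 and Atp5b), with a median change of -0.05, against 2.83% of all starts called lower and a median over all starts of 0.02. Leaving out a single library gave 6 calls without WT replicate 1, 6 without WT replicate 4, 22 without WT replicate 2, 24 without WT replicate 3, 6 without Smad2_KO1 replicate 2, 8 without Smad2_KO1 replicate 3 and 4 without Smad2_KO2 replicate 2. Over all starts the share called lower moved as well, from 5.74% without WT replicate 1 to 21.7% without WT replicate 3, and was 7.33% without Smad2_KO2 replicate 2. Without replicate 2 of both clones, 2 were called (Ndufv1 and Ndufs8), against 4.19% of all starts. With the same-numbered KO libraries averaged, 15 were called, 11 of them among the 13, against 13.0% of all starts. The scaling mattered as well. DESeq2 size factors moved the median log2 change of all tested intervals from 0.12 to 0.01, and under them 34 member starts were lower against 29.1% of all starts. Scaling to an equal total over all start intervals, which moved that median to 0.25, left 3 (Ndufv1, Ndufs8 and Uqcrq), against 2.23% of all starts. No member start was called higher under any of the settings named here.

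Ndufv1 was called under each of the 23 alternatives. It encodes the flavoprotein at which complex I takes electrons from NADH. Its start interval in Paused (chr19:4012741-4012941) held 649.8, 605, 625 and 637 in the WT libraries, 537, 473, 473 and 546 in Smad2_KO1, and 514, 514, 505 and 491 in Smad2_KO2. Every KO library lay below the lowest WT library. The log2 changes were -0.31 ± 0.07 in Smad2_KO1 (SE; limma adjusted p = 0.00227) and -0.31 ± 0.07 in Smad2_KO2 (adjusted p = 0.00237). In Ctrl the same start held 553, 504, 478 and 467 in the WT libraries, 487, 477, 465 and 481 in Smad2_KO1, and 472, 491, 464 and 444 in Smad2_KO2, where the groups overlapped.

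Ndufs8, an iron-sulfur subunit of complex I on the path to ubiquinone, lost its call under 1 of the 23 alternatives, the fit without WT replicates 1 and 4. Its Paused interval (chr19:3912826-3913026) held 766, 689, 697 and 812 in the WT libraries, 633, 591, 587 and 616 in Smad2_KO1, and 559, 547, 605 and 624 in Smad2_KO2. The groups did not overlap, and the log2 changes were -0.29 ± 0.07 in Smad2_KO1 (SE; limma adjusted p = 0.00461) and -0.34 ± 0.07 in Smad2_KO2 (adjusted p = 0.000886). The core subunit Ndufs7 (-0.29 and -0.27 in the clones) lost its call under 13 alternatives, and the accessory subunit Ndufv3 (-0.30 and -0.34) under 6. Ndufs1 was not called. This subunit, which carries iron-sulfur clusters at the entry of the electron path, held 298, 202, 207 and 293 in the WT libraries, 206, 202, 199.5 and 231 in Smad2_KO1, and 234, 193, 220.0 and 218 in Smad2_KO2. WT replicates 1 and 4 were above every other library there, and WT replicates 2 and 3 lay within the KO range. Ndufv3 was the 1 start called among 24 accessory subunits, and 0 of 8 assembly factors were called, against 11.5% of all starts called lower. With DESeq2 size factors, under which 29.1% of all starts were lower, the calls included Ndufaf1, Ndufaf8 and further accessory subunits. For these 8 assembly factors the median change was -0.12, and 2 passed in Smad2_KO1 alone. Of the 12762 tested starts of all genes, 2200 passed in Smad2_KO1, whether or not the other clone passed.

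In complex II, Sdhb held 676, 539.9, 521 and 607 in the WT libraries, 499, 482, 431 and 502 in Smad2_KO1, and 474, 435, 537 and 522 in Smad2_KO2 (chr4:140961158-140961358). The lowest WT libraries were close to the highest KO libraries, and the groups overlapped. The log2 changes were -0.29 ± 0.08 in Smad2_KO1 (SE; limma adjusted p = 0.0128) and -0.25 ± 0.08 in Smad2_KO2 (adjusted p = 0.0305). Sdhc, a membrane anchor of the complex, changed by -0.27 and -0.32. Sdhb lost its call under 8 alternatives and Sdhc under 9. Sdha, the catalytic flavoprotein, was not called, with -0.16 and -0.13, and was above 0 (0.08) without WT replicates 1 and 4.

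In complex III, Uqcrc1, a core protein of the matrix side, held 476, 448, 435 and 413 in the WT libraries, 354, 352, 371 and 380.4 in Smad2_KO1, and 371, 327, 358 and 386 in Smad2_KO2 (chr9:108936404-108936604). The groups did not overlap. The log2 changes were -0.28 ± 0.08 in Smad2_KO1 (SE; limma adjusted p = 0.0117) and -0.30 ± 0.08 in Smad2_KO2 (adjusted p = 0.00776), and the call was lost under 2 alternatives. Uqcrq had the largest fall of the set, with 590.5, 504, 465 and 656 in the WT libraries, 492, 382, 387 and 464 in Smad2_KO1, and 486, 359, 416 and 459 in Smad2_KO2. The highest KO library was above the lowest WT library. Its log2 changes were -0.36 ± 0.10 in Smad2_KO1 (SE; limma adjusted p = 0.00783) and -0.36 ± 0.10 in Smad2_KO2 (adjusted p = 0.00743). Uqcrq lost its call under 4 alternatives. Uqcr11 changed by -0.29 and -0.29, a call lost under 8. Uqcrfs1, the Rieske iron-sulfur protein, was not called (-0.11 and -0.09), and its value was 0.15 without WT replicates 1 and 4.

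In complex V, Atp5b, the catalytic beta subunit, held 663, 691, 613 and 709 in the WT libraries, 554, 500.2, 537 and 581 in Smad2_KO1, and 579, 517, 555 and 593 in Smad2_KO2 (chr10:128083054-128083254). All KO libraries were below the lowest WT library. The log2 changes were -0.30 ± 0.07 in Smad2_KO1 (SE; limma adjusted p = 0.00362) and -0.25 ± 0.07 in Smad2_KO2 (adjusted p = 0.0133), and 3 alternatives ended the call. The central stalk subunits Atp5d (-0.31 and -0.29) and Atp5e (-0.24 and -0.22) and the membrane subunit Atp5k (-0.34 and -0.30) lost theirs under 7, 13 and 8 alternatives. Atp5a1 passed in Smad2_KO2 and not in Smad2_KO1, with -0.27 ± 0.10 in Smad2_KO1 (SE; limma adjusted p = 0.0592) and -0.32 ± 0.10 in Smad2_KO2 (adjusted p = 0.0247). Only 3 of the 68 starts had a mean change above 0, at Atp5g3 of the c-ring (0.03), Ndufc2 (0.03) and Ndufaf2 (0.04), none of them called.

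**Figure D2:**
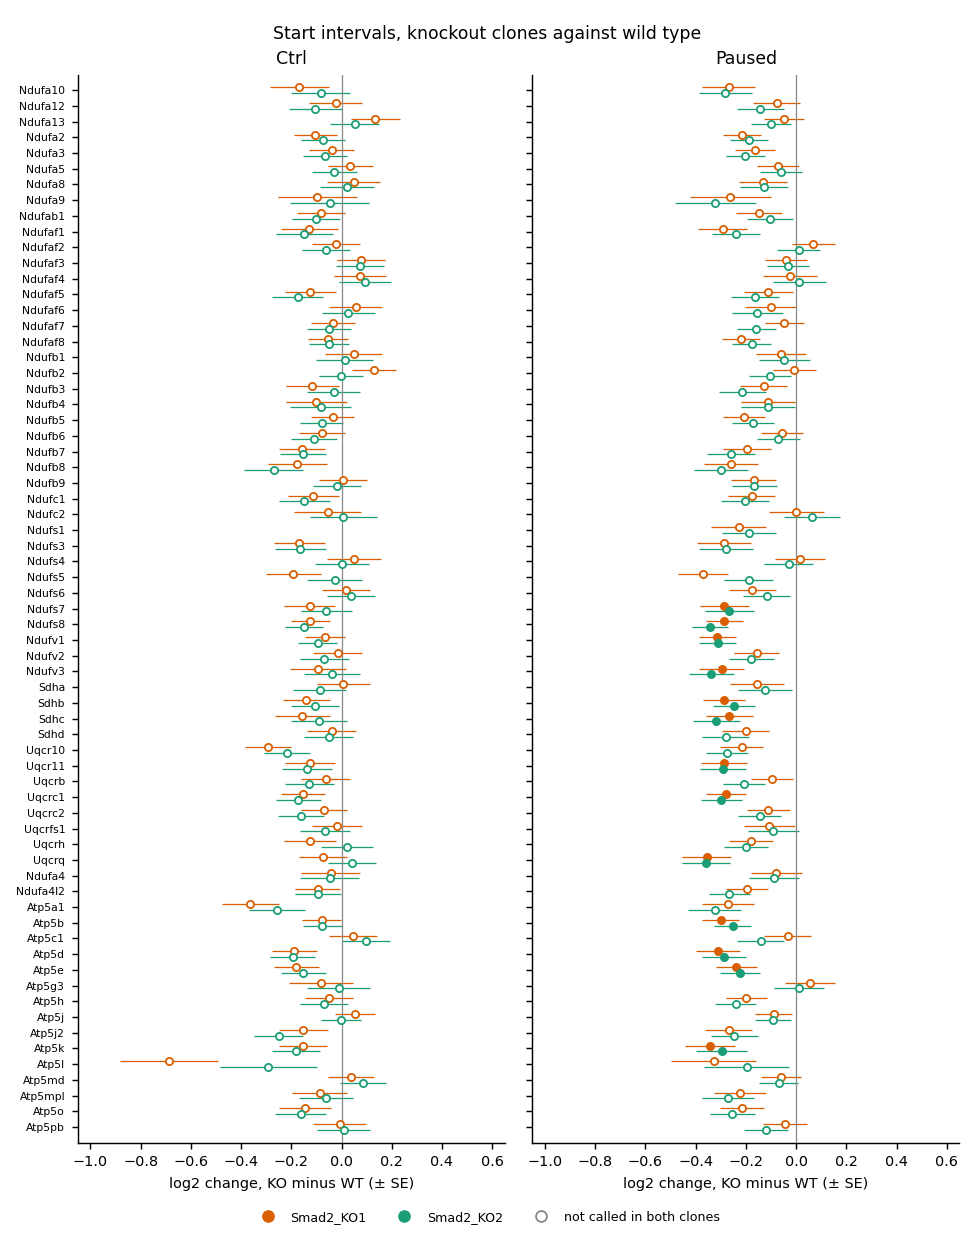
Log2 change of KO minus WT (x axis, ± SE from limma) at member start intervals in Ctrl (left, 66) and Paused (right, 67 of the 68), for Smad2_KO1 and Smad2_KO2. Filled points were called in both clones, 0 in Ctrl and 13 in Paused, all of the latter below 0.

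**Figure D3:**
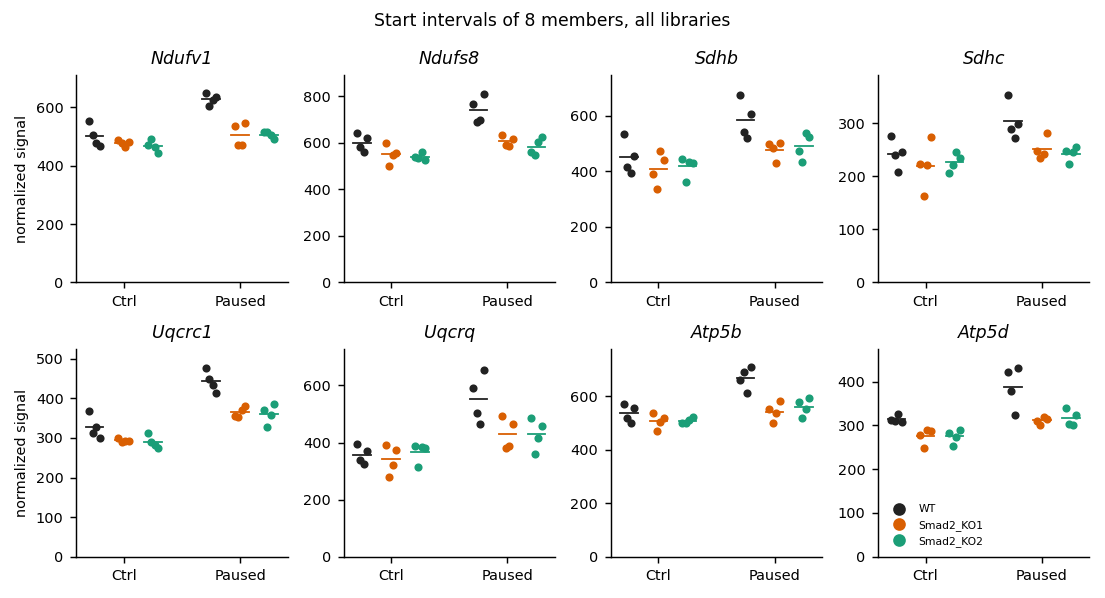
Normalized signal (y axis, from 0) at the start intervals of 8 members in every library, with horizontal bars at group means of 4 libraries. In Paused the KO libraries of Ndufv1, Ndufs8, Uqcrc1 and Atp5b all lie below the WT libraries, while Sdhb, Sdhc, Uqcrq and Atp5d overlap. The 8 genes are among the 13 that were called in Paused.

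Whether the members moved apart from other starts was described from their summed signal. In Paused the summed member starts were 23795 ± 2441 for WT against 20997 ± 549 and 20783 ± 574 for the clones (SD, n = 4 each). In Ctrl they were 19095 ± 1725, 18232 ± 1489 and 18110 ± 239. The signal in start intervals of all genes moved with this: 23.1% ± 2.00 of the table's signal in Paused WT, against 21.5% ± 0.462 and 21.3% ± 0.725 in the clones. As a share of all start signal, the members made up 0.668% to 0.679% in the 4 Paused WT libraries and 0.650% to 0.668% in the 8 KO libraries, where the lowest WT library (0.66764%) was barely above the highest KO library (0.66757%). In Ctrl this share ranged from 0.656% to 0.670% in WT and from 0.654% to 0.666% in the clones, and the groups overlapped. The part of the shift at all starts in the members' result was not tested.

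**Figure D4:**
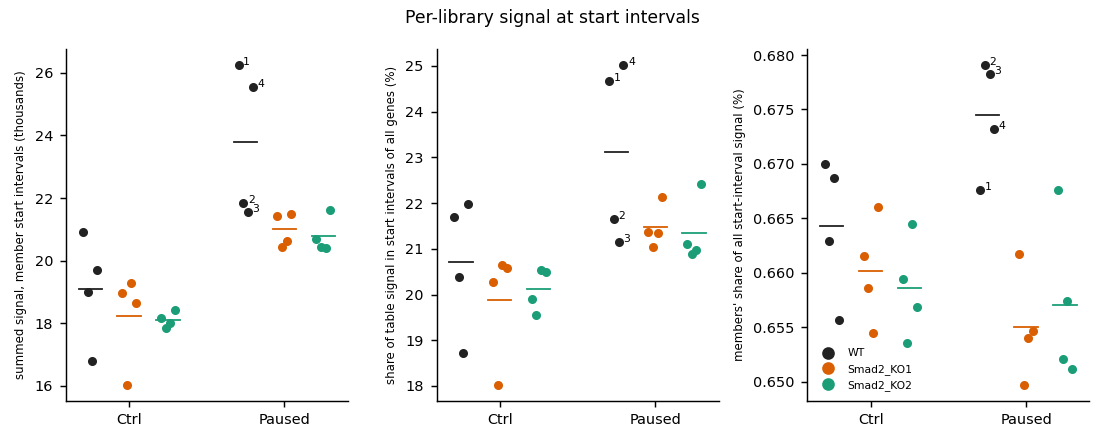
Per-library values (points, with bars at group means of 4) of the summed signal of member start intervals (left), the share of table signal in the start intervals of all genes (middle) and the members' share of all start-interval signal (right). The y axes do not start at 0. Numerals mark the Paused WT replicates, of which 1 and 4 lie at 24.7% and 25.0% in the middle panel and 2 and 3 at 21.7% and 21.2%.

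Level and sharing of starts were also compared. When all Paused starts were divided by level into 4 groups of equal size, the share called lower was 4.92%, 9.91%, 13.6% and 17.8% from the lowest group to the highest. Members in these groups were called in 0 of 4, 0 of 11, 6 of 31 and 7 of 22 cases. Of the 39 member starts used by 1 gene, 11 were called lower, and of the 29 shared with a neighbour, 2 were. Over all genes the shares ran the other way, 11.3% of single and 14.6% of shared start intervals. This split was made after the values were seen and was not tested.

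Away from starts, intervals in and near the members changed in both directions, at shares near or below those of all tested intervals, starts included. In Ctrl, 14 of all 351 tested member intervals were called, 11 higher and 3 lower, none at a start. This was 3.99% of all and 4.91% of the 285 away from starts, against 7.15% of all tested intervals (3.95% higher and 3.2% lower). In Paused, 43 of 345 were called, 23 higher and 20 lower, or 12.5% against 13.9% (9.01% higher and 4.92% lower). Of the 277 tested intervals away from starts, 10.8% were called, 23 higher (8.30%) and 7 lower (2.53%), with a median change of 0.16. The median over all tested intervals in Paused, starts included, was 0.12. With DESeq2 size factors the split over all tested member intervals turned to 17 higher and 49 lower of 347, against 15396 and 23142 of all 260920. Equal start totals gave 41 higher and 5 lower of 347, against 36059 and 5269 of all 261243. With the same-numbered KO libraries averaged, 34 were higher and 25 lower of 329, against 32744 and 17044 of all 250835. Without WT replicates 1 and 4, 17 were higher and 7 lower of 340 (24 in all), against 12067 and 6799 of all 258084. Under size factors and equal start totals the split of all tested intervals thus turned the same way.

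The largest rises in Paused were inside complex I genes. In Ndufaf5, which encodes an assembly factor, the interval chr2:140203940-140204140 held 17.3, 23.6, 18.3 and 19.9 in the WT libraries, 51.3, 68.9, 65.7 and 47.7 in Smad2_KO1, and 54.9, 48, 57.2 and 38.3 in Smad2_KO2. All KO libraries were above all WT libraries, with log2 changes of 1.51 ± 0.18 in Smad2_KO1 (SE; limma adjusted p = 2.45e-07) and 1.28 ± 0.18 in Smad2_KO2 (adjusted p = 4.04e-06). Another interval in the gene, chr2:140202777-140202977, changed by 1.01 and 1.36. In Ndufa5, an accessory subunit, chr6:24523131-24523331 rose from 35.5 ± 8.27 in WT to 72.1 ± 14.7 and 82.8 ± 12.2 in the clones (SD, n = 4), without overlap. Ndufa9 (1.03 and 1.34), Ndufaf2 (1.10 and 1.14) and Ndufa11 (1.10 and 1.04) also held intervals that rose. The calls in Ndufa5, in Ndufaf2 and at the first Ndufaf5 interval held under all 23 alternatives, those in Ndufa11 and at the second Ndufaf5 interval were lost under 4 each, and that in Ndufa9 under 1. The interval in Ndufa9, chr6:126836657-126836857 in Ctrl, was called higher there too (1.25 and 0.99), a call lost under 3 of 21 alternatives. The comparisons within each treatment use different libraries.

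Other intervals called higher in Ctrl lay in Ndufc2 (1.05 and 0.83), Ndufb3 (0.92 and 0.89), Ndufa7 (0.75 and 0.82) and Atp5pb (0.72 and 0.64) and beside Ndufa12 (0.79 and 0.82). Of the 21 alternatives in Ctrl, 11 ended the call at Ndufa12, 7 at Ndufb3, 5 at Ndufc2, 3 at Ndufa7 and 2 at Atp5pb. The called falls with the largest size in Ctrl were in Ndufs4, an accessory subunit of complex I. In Ctrl, chr13:114297922-114298122 held 264, 199.7, 278 and 308 in the WT libraries, 179, 177, 171 and 173 in Smad2_KO1, and 173, 190.2, 129 and 153 in Smad2_KO2. All KO libraries were below all WT libraries, with log2 changes of -0.57 ± 0.11 in Smad2_KO1 (SE; limma adjusted p = 0.000592) and -0.70 ± 0.11 in Smad2_KO2 (adjusted p = 3.54e-05). A nearby interval, chr13:114293364-114293564, changed by -1.16 and -0.68. Both calls held under all 21 alternatives in Ctrl. In Paused the first of these sites (chr13:114297911-114298111) was again called lower (lost under 1 of 23 alternatives), at 165 ± 39.8 in WT against 105 ± 8.59 and 103 ± 6.04 in the clones, while a further Ndufs4 interval rose in Ctrl (0.62 and 0.57). The Ndufs4 start interval did not pass in either table.

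Further falls in Paused lay in Ndufaf6 (-0.45 and -0.52), Ndufa7 (-0.50 and -0.64) and Ndufv3 (-0.47 and -0.41) and beside Atp5e (-0.57 and -0.72) and Ndufa10 (-0.45 and -0.42). The Ndufaf6 interval, chr4:11053092-11053292, held 248, 242, 219 and 241 in the WT libraries, 166, 173, 165 and 189.7 in Smad2_KO1, and 141, 164, 167 and 190.3 in Smad2_KO2. The groups did not overlap, and its call held under all 23 alternatives. The calls were lost under 9 of the 23 alternatives in Ndufv3, 7 beside Atp5e, 2 in Ndufa7 and 1 beside Ndufa10. The Ndufa7 interval was also called lower in Ctrl (-0.47 and -0.44), a call lost under 10 of 21 alternatives. Exons and introns were not told apart for these intervals, since the gene table used here gives gene bounds alone.

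**Figure D5:**
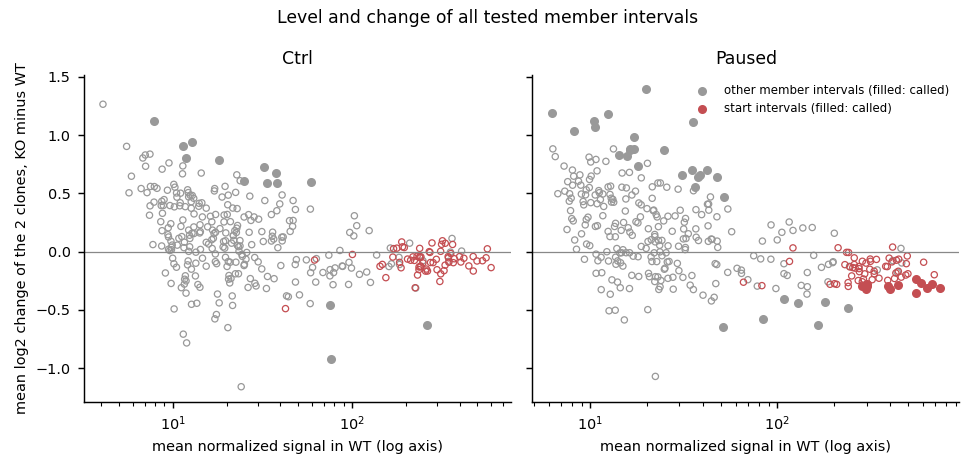
Mean log2 change of the clones against WT (y axis) by mean normalized signal in WT (x axis, log scale) for all tested member intervals in Ctrl (left, 351) and Paused (right, 345). Start intervals (red) sit at high signal and, in Paused, mostly below 0 (65 of 68), while calls among the other intervals (grey, filled) are mostly above 0, 11 higher and 3 lower in Ctrl and 23 higher and 7 lower in Paused.

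Other nuclear genes of the pathway were counted at their start intervals from lists chosen by function. In Ctrl none was called in any of these lists. In Paused 4 of 15 complex IV subunits with a start interval were lower, Cox6a1 (-0.34 and -0.36 in Smad2_KO1 and Smad2_KO2), Cox6b1 (-0.32 and -0.39), Cox7a1 (-0.35 and -0.33) and Cox8a (-0.26 and -0.29), with a median over the list of -0.10. Of 3 electron carriers and complex III subunits outside the symbol rule, Cyc1 (cytochrome c1) was lower (-0.27 and -0.28). Of 27 assembly factors outside the rule, 4 were lower: the complex III factors Uqcc2, Uqcc3 and Lyrm7 and the complex IV factor Surf1, with a list median of -0.16. Of 10 regulators of mitochondrial genes, 3 were lower: Esrra, a nuclear receptor, Pprc1, a coactivator related to PGC-1, and Polrmt, the mitochondrial RNA polymerase, with a list median of -0.17. No gene of these lists was called higher. Over all starts, 11.5% were called lower and the median was -0.13. Without WT replicates 1 and 4, 2 of the complex IV subunits (Cox7a1 and Cox8a) and none of the other 3 lists were called. Without replicate 2 of both clones, the calls were those of Cox7a1, Cox8a, Surf1 and Uqcc3. With equal start totals none was lower and Cox8c was higher.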

How the data were processed

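ATAC-seq was deposited as 2 interval tables, 1 for Ctrl and 1 for Paused, each with 12 libraries. Per the file headers, the deposited tables hold a normalized signal per library and interval, the log2 mean levels and log2 fold change of KO against WT, and the p-value and FDR of that comparison. Per the submitters' processing notes, the build was mm10 (GRCm38) and the tools were FastQC, Trim Galore, Bowtie2 2.4.1, MACS3 3.0.3 and DiffBind 3.16.0, with no roles given. The values of each library were whole multiples of 1 step (100% within 0.0051 plus 2e-05 per read), so whole reads were recovered. In 4 columns that step was within 1% of 1. The step sets the scale of a library, so a different scaling changes every value in it.

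Since the values were normalized, log2(value + 1) was tested with limma 3.58.1 in R 4.3.3, separately in each table, on intervals with at least 10 in at least 4 libraries. A fold change on this scale understates the change of low intervals. P-values were adjusted by Benjamini-Hochberg over all tested intervals. Depth was 11772458 to 16525762 reads in intervals per library in Ctrl and 11456986 to 20007829 in Paused, where the lowest intervals have the widest counting error. edgeR 4.0.16 on recovered reads called 7325 intervals higher and 14652 lower in both clones in Ctrl, and 14339 and 23509 in Paused. Other alternatives were DESeq2 1.42.0 size factors, TMM factors, scaling to start totals, no filter, a pseudocount of 0.1, a replicate block, pooled or averaged KO libraries, and leaving libraries out. Only the limma fit was tried on simulated data, with independent libraries and planted changes far larger than those at the member starts. That trial does not bear on changes as small as those at starts, nor on the other fits. Genes and starts came from RefSeq tables of GRCm38.p6, and promoter windows from the same release.

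Members and lists were chosen with earlier results of these data known. Named were a set of 8 core genes, in each table up to 6 called intervals in each direction with the largest change, the 4 highest and 4 lowest starts by difference between treatments, the extremes of level in each complex, and members without a start interval. The other called starts were named after their values were seen. Another member is in every count and is not reported here on its own. No library was left out of the reported fits.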

Additional observations from a re-analysis of the deposited data

Results flagged for a closer look

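In groups of 4 libraries, a library was listed when its gap to the nearest of the others, divided by the range of the group, was above Dixon's 95% critical value. This was the case in 8 of 171 groups, and chance lists about 1 in 20 groups.

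At starts, Uqcrq in Ctrl Smad2_KO2 was 316 in replicate 2 and 382 to 389 in the other libraries. Atp5j in Ctrl WT was 511 in replicate 3 against 586 to 599.6. Away from starts, the Ndufa7 interval called higher in Ctrl was 41.9 in Smad2_KO2 replicate 2 against 28.7 to 29.2, so that clone's rise was largest in 1 library. The interval beside Ndufa10 called lower in Paused was 145 in Smad2_KO1 replicate 3 against 124 to 126, and 118 in Smad2_KO2 replicate 2 against 138 to 140.3. The interval in Ndufv3 called lower in Paused was 107 in WT replicate 3 against 135 to 138. The share of signal in the start intervals of all genes was 18.0% in Ctrl Smad2_KO1 replicate 2 against 20.3% to 20.6%, and 22.4% in Paused Smad2_KO2 replicate 4 against 20.9% to 21.1%.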

How the results depend on the processing

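The count of called member starts in Paused (13 of 68) became 34 with DESeq2 size factors, 33 with TMM factors, 34 with edgeR, 32 with the 8 KO libraries as 1 group, 3 with equal start totals, 3 without WT replicates 1 and 4, 2 without replicate 2 of both clones, and 4 to 24 with 1 library left out. Of all Paused starts, 29.1% were lower with size factors, 3396 of 12762 with TMM, 3615 of 12762 with edgeR and 3471 of 12762 with 1 KO group. The share was 2.23% with equal start totals, 2.83% without WT replicates 1 and 4, and 4.19% without replicate 2 of both clones. With 1 library left out it was 5.74% to 21.7%. Over all member intervals in Paused the count (43 of 345) became 66, 65 and 102 with size factors, TMM and 1 KO group, 24 without WT replicates 1 and 4, 17 without replicate 2 of both clones, and 26 to 63 with 1 library left out. Over all tested intervals, TMM gave 16210 higher and 21558 lower of 260904, and 1 KO group called 74734 of 260539. Without replicate 2 of both clones, 10953 were higher and 7353 lower of 256354. The range over all intervals with 1 library left out is not given here. In Ctrl the starts (0 of 66) became 1 with size factors, TMM and edgeR each, and 3 with 1 KO group or averaged KO libraries, and all intervals (14 of 351) became 41, 30 and 6 to 16 with 1 KO group, averaging and leaving out 1 library. Of all Ctrl starts, 778 of 12828 were lower with size factors, 737 of 12833 with TMM and 6.16% with edgeR. With 1 KO group 1024 of 12843 were lower, and with averaging 5.35%. Over all tested Ctrl intervals, 1 KO group called 49619 of 282089 and averaging 35661 of 264525. Equal start totals, averaging, and leaving out several libraries were chosen after seeing the data.

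Size factors turned the split of calls over all intervals from 23477 higher and 12816 lower to 15396 and 23142 in Paused, and from 11132 and 9027 to 7865 and 13554 in Ctrl. Over the alternatives for single named genes and intervals, 932 values kept the direction and the side of the threshold, 152 lost the call, 10 gained one and 10 changed sign, all of the last among tested starts that were not called. Differences between treatments near 0 (Ndufaf2, Ndufaf5, Ndufaf7 and Ndufs7) changed sign under some alternatives. With equal start totals Sdha was 0.018 and Uqcrfs1 0.016 in Ctrl, and Sdha was 0.00058 and Uqcrfs1 0.044 in Paused. Without Paused WT replicates 1 and 4, Ndufs1 was 0.056, Sdha 0.081 and Uqcrfs1 0.15. With 1 library left out in Ctrl, Sdha ranged from -0.15 to 0.023 and Uqcrfs1 from -0.11 to 0.013. The cause was not tested.

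With the replicate block, 0 starts and 15 intervals were called in Ctrl, and 19 starts (all lower) and 56 intervals in Paused. Under that block 1991 of all 12762 Paused starts were lower. Over all tested intervals 12660 were higher and 9819 lower of 282089 in Ctrl, and 27186 and 15136 of 260539 in Paused. Deviations of same-numbered WT and KO libraries had correlations between -0.0057 and 0.045 (Ctrl) or -0.0074 and 0.063 (Paused), so the number was not taken to pair them. Those of same-numbered Smad2_KO1 and Smad2_KO2 libraries lay between 0.0082 and 0.11 (Ctrl) or 0.034 and 0.19 (Paused), and those of differently numbered ones in Paused between -0.13 and 0.044. The median difference between treatments in WT stayed between 0.17 and 0.35 under its alternatives. Depth limits weak intervals most.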
